A study of Mus musculus with 2 samples.

Results

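Mir218-1 and Mir218-2 are the mouse genes of the microRNA (miRNA) miR-218, and each lies inside a Slit gene. They were taken from the 2202 annotated miRNA genes of the deposited count files by their GENCODE M21 names, so 2 of 2202 genes are described. The files come from small-RNA sequencing of total RNA of the left cerebral cortex. The animals were 2 males, each 25 days old, with 1 library per mouse, called replicate 1 and replicate 2 as in the labels. Both mice were B6CASTF1/J, a first-generation cross between C57BL/6J and CAST/EiJ, both inbred, with no treatment or engineered allele named in the labels. Both libraries therefore belong to 1 group, and the design allows a description of levels and a comparison of the libraries, not of conditions. The replicates are separately numbered males under 1 shared donor entry.

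A miRNA gene is transcribed as a longer RNA that folds into a hairpin, from which a short duplex is cut. Either strand of the duplex, the 5p or the 3p arm, can be loaded into an Argonaute protein, and its seed near the 5′ end then guides the protein to matching sites in target mRNAs. The Slit proteins are secreted guidance cues that repel growing axons through Robo receptors. miR-218 is known for its high level in motor neurons of the brainstem and spinal cord, and Robo1 mRNA is among its known targets. Because the miRNA lies in introns of Slit2 and Slit3, a Slit transcript can also be the precursor of a regulator of a Slit receptor.

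The mature sequences are shown because they set what a count of either gene can contain. They are RefSeq sequences on GRCm38.p6, 5′ to 3′, with the seed (bases 2 to 8) in capitals. The 5p arm is the same in both genes, at chr5:48223966-48223986 and chr11:35616840-35616860 (plus strand). The 3p arms lie at chr5:48224005-48224026 and chr11:35616882-35616903.
miR-218-5p: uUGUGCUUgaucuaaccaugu
miR-218-1-3p: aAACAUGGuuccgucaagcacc
miR-218-2-3p: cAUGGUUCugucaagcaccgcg

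The genes thus share 1 seed on the 5p side and have different seeds on the 3p side. The 3p arms are set 3 bases apart along the stem. Over the 19 bases they have in common, 18 are identical, and the single difference is C12U, counted from 1 at the 5′ end of miR-218-1-3p, with the base of miR-218-1-3p first. In the RefSeq miRNA table used here, the whole 5p sequence was found in 2 hairpins, those of Mir218-1 and Mir218-2, and each 3p sequence in 1. One other mature sequence, miR-7002-3p, has the seed of miR-218-5p, and one, miR-496b, has that of miR-218-1-3p. No other entry has the seed of miR-218-2-3p. The genes of these seed mates were at or near 0 in this cortex, with 3 counts in replicate 1 and 0 in replicate 2 for Mir7002 and no count in either library for Mir496b.

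The hairpins show where the genes can be told apart. Both are RefSeq sequences of 110 bases with the mature arms in capitals, from chr5:48223942-48224051 and chr11:35616816-35616925 of GRCm38.p6, on the plus strand, the same positions as in the mm10 annotation.
Mir218-1: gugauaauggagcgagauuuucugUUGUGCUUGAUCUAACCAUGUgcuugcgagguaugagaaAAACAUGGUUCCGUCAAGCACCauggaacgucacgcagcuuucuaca
Mir218-2: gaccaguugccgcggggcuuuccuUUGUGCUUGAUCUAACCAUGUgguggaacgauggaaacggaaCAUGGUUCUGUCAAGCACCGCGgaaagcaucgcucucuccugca

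Aligned end to end, the hairpins had 83 identical bases in 117 columns (70.9%). Their longest common run was 22 bases, from base 25 to base 46 of each, which is the 5p arm and the base after it. Of the 93 stretches of 18 bases in either hairpin, 5 also occurred in the other, and of the 89 stretches of 22 bases, 1 did. No stretch of 16 bases or more was shared with a hairpin outside the family in the table. A read of the 5p arm therefore matches both genes, while a read of a whole 3p arm matches 1 hairpin of the table. Matches elsewhere in the genome were not searched. RNAfold gave minimum free energies of -36.6 kcal/mol for Mir218-1 and -42.3 kcal/mol for Mir218-2, with 17 and 16 predicted base pairs between the arms. The G and C content was 45.5% for Mir218-1 and 54.5% for Mir218-2, and 18 and 21 bases separate the arms.

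**Figure D1:**
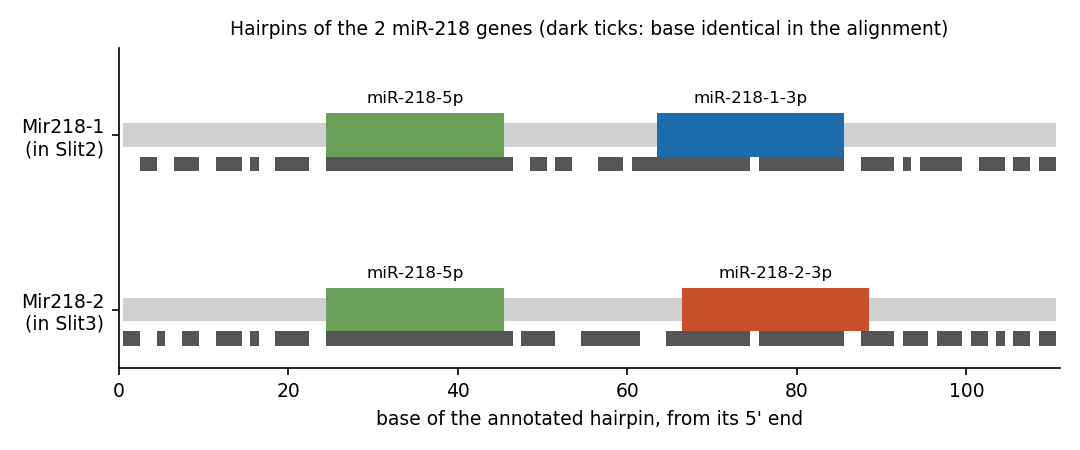
Map of the 110-base hairpins of Mir218-1 and Mir218-2, with position from the 5′ end in bases on the x axis. Green boxes are the shared 5p arm, blue and orange boxes the 3p arms, and dark ticks mark bases that are identical in the alignment. The 5p arm is covered by an unbroken run of identical bases, and the 3p arms differ at 1 base where they overlap.

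Their places in the host genes are alike too. Mir218-1 (ENSMUSG00000065603.1) lies in Slit2 on chromosome 5, and Mir218-2 (ENSMUSG00000065583.1) in Slit3 on chromosome 11. Both are on the strand of the host and within introns of its annotated transcripts. Transcripts with an exon over either miRNA were not looked for. In the principal coding transcripts, ENSMUST00000173107.7 of Slit2 and ENSMUST00000069837.3 of Slit3, each with 36 exons, both miRNAs lie in intron 14. That intron is 4572 bases long in Slit2 and 9571 bases long in Slit3. Mir218-1 sits 601 bases before the next exon, whereas Mir218-2 sits 5082 bases before it. The distance to the preceding exon is 3861 bases for Mir218-1 and 4379 bases for Mir218-2. In other Slit2 transcripts the intron number runs from 1 to 16, with the same 601 bases to the next exon. No annotated miRNA gene of the files lies within Slit1, Robo1, Robo3 or Robo4. Robo2 contains Mir691 and Gm24272, which had no count on either strand in either library.

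The files gave 2388379 own-strand counts in replicate 1 and 4447390 in replicate 2, so that 1 count is worth 0.419 and 0.225 counts per 1000000 (CPM). Levels are CPM of own-strand counts, and intervals are 95% exact Clopper-Pearson intervals, which cover counting error only, as the reads carry no molecular identifiers named in the labels and may not be independent. Reads with several matches made up 48.6% and 52.8% of mapped reads in replicates 1 and 2 and were given to no gene. Every level of Mir218-1 and Mir218-2 below is therefore one of reads that could be placed in a single locus. How many of the unplaced reads were miR-218-5p was not analysed here, so neither level measures the mature 5p miRNA. Neuron-enriched miRNA genes, read as a check of the tissue, were measured for 20 of 23 genes in the files and led by Mir132 (49092 ± 15979.9 CPM, SD, n = 2), Mir128-1 and Mir137. The 3 genes not measured were those of miR-124, an abundant neuronal miRNA (Mir124a-1 at 2.90, Mir124a-3 at 1.11 and Mir124a-2 at 0.112 CPM). The neural miR-9 genes were also low (Mir9-3 at 72.7, Mir9-1 at 20.2 and Mir9-2 at 3.76 CPM). In the RefSeq miRNA table, both mature sequences of each miR-9 gene also lie in another gene. Reads with several matches are missing from these values as well. The low levels therefore do not show that mature miR-124 or miR-9 was scarce. Summed means of the other lists were 48469 CPM for astrocytes (led by Mir23b), 22382 CPM for endothelial and mural cells (Mir126a), 3141 CPM for oligodendrocytes (Mir219a-2), 2404 CPM for microglia and white cells (Mir150) and 139 CPM for red cells (Mir451a). Mir143, at a mean of 5449 CPM, is on both the astrocyte and the endothelial and mural lists, so these sums overlap.

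Mir218-2 had more placed reads than Mir218-1, and its level by such reads was moderate. It had 258 counts in replicate 1 and 545 in replicate 2, which are 108 CPM (interval 95.2 to 122) and 123 CPM (112 to 133). The intervals of the libraries overlap, and the mean was 115 ± 10.3 CPM (SD, n = 2). It held rank 198 among all genes in each library and rank 201 by mean CPM. Of the 392 genes that reached 10 counts in both libraries, called measured here, 49.5% had fewer counts than Mir218-2 in each library. By placed reads, Mir218-2 thus stood near the middle of the measured genes. Reads of its shared arm that matched both genes are missing from this rank. In the RefSeq miRNA table, at least 266 of the measured genes have no arm shared with another gene. The rank therefore does not give the standing of the mature miRNA.

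Mir218-1 was low. It had 35 counts in replicate 1 and 96 in replicate 2, which are 14.7 CPM (interval 10.2 to 20.4) and 21.6 CPM (17.5 to 26.4), with a mean of 18.1 ± 4.90 CPM (SD, n = 2). The intervals overlap here as well. Its rank was 295 in replicate 1 and 282 in replicate 2, with 24.2% and 28.1% of measured genes below it. The level lay above the floor of 3 counts, at 1.26 CPM for replicate 1 and 0.675 CPM for replicate 2. Neither gene had a count on the opposite strand in either library, which limits antisense reads to the same floor.

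**Figure D2:**
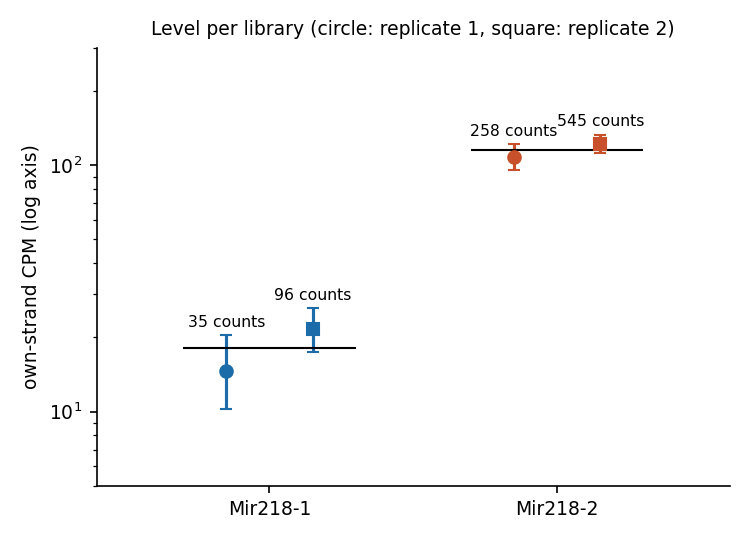
Own-strand CPM (log axis) of Mir218-1 and Mir218-2, with circles for replicate 1, squares for replicate 2, bars for the 95% exact interval and a line at the mean of both libraries. Mir218-2 lies at 108 and 123 CPM, above Mir218-1 at 14.7 and 21.6 CPM, and the intervals of the genes do not overlap in either library.

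The Slit3 copy gave most of the assigned miR-218 reads. Both hairpins are 110 bases long, so the ratio of their counts is also the ratio per length. Mir218-2 had 7.37 times the counts of Mir218-1 in replicate 1 (exact binomial interval 5.17 to 10.8) and 5.68 times in replicate 2 (4.56 to 7.13). On the log2 scale the ratio of Mir218-2 to Mir218-1 was 2.69 ± 0.27 (SD, n = 2). Mir218-2 was the higher gene in both libraries, with intervals far from 1. As a share of the summed counts, Mir218-2 took 88.1% in replicate 1 (83.8 to 91.5%) and 85.0% in replicate 2 (82.0 to 87.7%). The sum was 293 counts in replicate 1 and 641 in replicate 2, or 123 and 144 CPM, which is 0.0123% and 0.0144% of the own-strand counts.

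The order of the copies was the same in both mice, and the split between them did not pass a test of difference. The counts of copy 1 and copy 2 were compared between the libraries by Fisher's exact test (two-sided) for all pairs of genes numbered 1 and 2 with no further copy. Of 43 such pairs, 22 had at least 10 counts over both copies in each library. Of these, 14 (63.6%) passed an adjusted p of 0.05 (Benjamini-Hochberg). The test sets 1 library against 1 and covers counting error only, with no allowance for the spread between mice. The miR-218 pair was not among them (exact p = 0.225, adjusted p = 0.275). The share of Mir218-2 moved by -3.03 percentage points from replicate 1 to replicate 2, and the log2 odds ratio was -0.38 with an exact interval of -1.02 to 0.24. The interval includes 0 and is wide at this depth, so the test does not show that the splits were alike. The median absolute change over the 22 pairs was 3.65 points, and 11 pairs changed by more than the miR-218 pair.

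Other miRNAs kept as copies in introns of related hosts are set beside miR-218 as values only. Among the 22 tested pairs, which were taken by their numbers and not by their hosts, miR-218 stood at position 8 by the share of its higher copy. By summed CPM it stood at position 17. The pairs above it by share include those of Mir3074 and Mir194, where the lower copy had at most 1 count in a library. The miR-128 genes, in R3hdm1 and Arpp21, summed to far more, 17477 CPM on average, and there copy 1 was the higher, with copy 2 at 20.5% in replicate 1 and 17.6% in replicate 2. The miR-103 genes, in introns of pantothenate kinase genes, had copy 2 at 77.2% and 83.4%, on a lower sum of 42.7 CPM. The miR-26a genes, in Ctdspl and Ctdsp2, had copy 2 at 31.1% in replicate 1 and 90.4% in replicate 2, and their split passed the test. The higher copy was the same in both libraries for 19 of the 21 other pairs. A list of 12 genes taken as such copies also holds Mir204, Mir211, Mir190a, Mir190b, Mir208a and Mir208b. Whether the hosts of each of its pairs are related was not checked here. Of the 12 genes, 10 were measured, and in the library test described next 4 passed as higher and 4 as lower in replicate 2. Over all 392 measured genes 223 passed (56.9%), 134 as higher and 89 as lower. The list had a median log2 ratio of -0.53, beside 0.06 over all measured genes. The split of miR-218 was not tested against those of the other pairs.

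**Figure D3:**
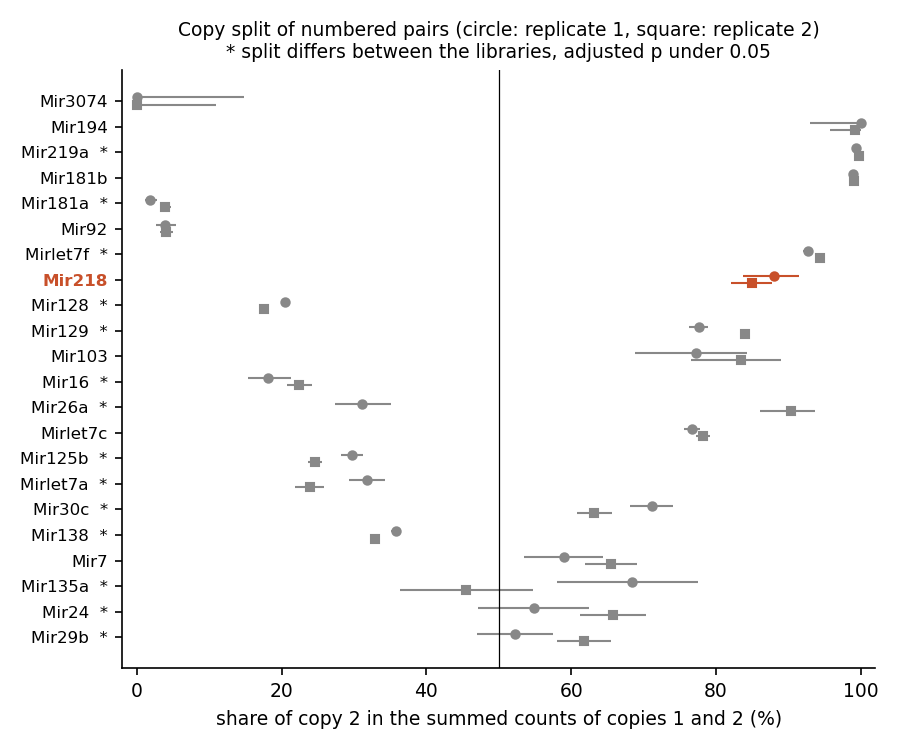
Share of copy 2 in the summed own-strand counts of copies 1 and 2 (%, x axis) for the 22 tested pairs, ordered by the mean share of the higher copy. Circles are replicate 1, squares replicate 2, bars 95% exact intervals, and an asterisk marks a split past Fisher's exact test between the libraries, which covers counting error only. The miR-218 pair (orange) lies at 88.1% and 85.0% with overlapping intervals.

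Between the libraries, both genes had more CPM in replicate 2, and neither difference passed. Each measured gene was compared by a two-sided exact binomial test of how its counts divide between the libraries, conditional on their totals, and p-values were Benjamini-Hochberg adjusted over all 392. Of these, 223 (56.9%) passed an adjusted p of 0.05. That test covers counting error only and compares these libraries, 1 on each side, with no replicate check. Mir218-1 stood at 1.47 times its replicate 1 level in replicate 2 (exact interval 0.991 to 2.24), a log2 ratio of 0.56 with a counting SE of 0.28 (binomial exact p = 0.054, adjusted p = 0.0892). Mir218-2 stood at 1.13 times (0.976 to 1.32), a log2 ratio of 0.18 with an SE of 0.11 (exact p = 0.0959, adjusted p = 0.149). Both intervals include 1 and leave room for a difference of up to 2.24-fold in Mir218-1 and 1.32-fold in Mir218-2. Summed levels of cell-type lists differed between the libraries as well. From replicate 1 to replicate 2, the endothelial and mural list went from 16755 to 28010 CPM. The astrocyte list went from 41491 to 55446 CPM and the neuron-enriched list from 93761 to 81849 CPM. Single abundant genes weigh on these sums, as Mir126a went from 10782 to 22504 CPM and Mir132 from 60392 to 37793 CPM. Over the measured genes of each list, the median log2 ratio was -0.11 for endothelial and mural, 0.35 for astrocyte and 0.15 for neuron-enriched genes. Only 3 endothelial and mural genes were measured, and their median is the value of Mir143, which is also on the astrocyte list. The sums of 2 lists thus moved against their medians. The part of these lists in the miR-218 values was not tested. With totals that leave out the 10 most abundant genes, the log2 ratio of Mir218-2 was -0.00093, so its direction depends on the scaling.

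Genes at similar levels give the scale of these differences. Of the 63 other measured genes within 2-fold of the mean level of Mir218-2, 39 (61.9%) passed the test, and 45 had a larger absolute log2 ratio than Mir218-2. Their log2 ratios had an SD of 0.84, which is widened by Mir26a-1 at a log2 ratio of -4.94. Around Mir218-1, where counts are fewer, 24 of 80 genes (30.0%) passed, 25 had a larger absolute log2 ratio, and the SD was 0.66. The log2 ratio of each miR-218 gene was thus smaller than the SD of genes at its level, a measure that outlying genes can raise. Over all measured genes the median absolute log2 ratio was 0.34, above that of Mir218-2 and below that of Mir218-1.

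**Figure D4:**
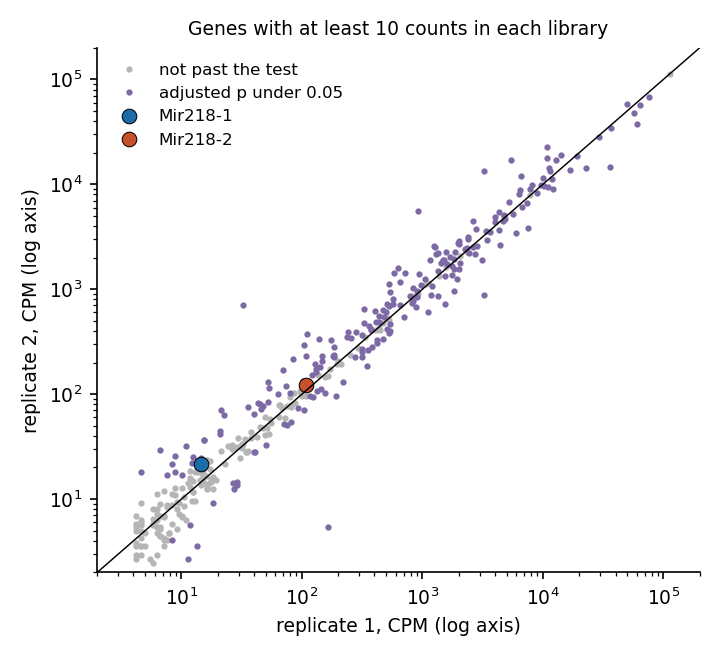
CPM in replicate 1 (x, log axis) against replicate 2 (y, log axis) for the 392 measured genes, with purple points for genes past the binomial test and a line of equal level. Mir218-2 (orange) and Mir218-1 (blue) lie slightly above the line, at log2 ratios of 0.18 and 0.56.

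The genes nearest in level were found by the distance of log2(CPM + 1) over the 2 libraries, which has only 2 points per gene and describes level, not regulation. For Mir218-2 they were Mir130b (116 CPM in replicate 1 and 127 CPM in replicate 2), Mir30c-1 (113 and 132 CPM) and Mir325 (103 and 132 CPM), at distances of 0.115, 0.118 and 0.128. For Mir218-1 they were Mir504 (14.2 and 22.3 CPM), the skeletal-muscle miRNA Mir206 (13.4 and 22.3 CPM) and Mir92-2 (13.4 and 20.2 CPM), at distances of 0.0577, 0.128 and 0.150. In the order by mean CPM, Mir218-2 stood between Mir325 (118 ± 20.7 CPM) and Mir493 (108 ± 20.9 CPM), and Mir218-1 between Mir504 (18.2 ± 5.67 CPM) and Mir5121 (18.1 ± 16.1 CPM, all SD, n = 2). All 4 of these neighbours lay within 1 SD of the miR-218 gene beside them by their own spread. Because they were taken as next in the order by mean CPM, this closeness is no test of likeness. The annotated hairpins of measured genes range from 43 to 147 bases with a median of 83. Per base of hairpin, the ranks were 209 for Mir218-2 and 311 for Mir218-1.

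**Figure D5:**
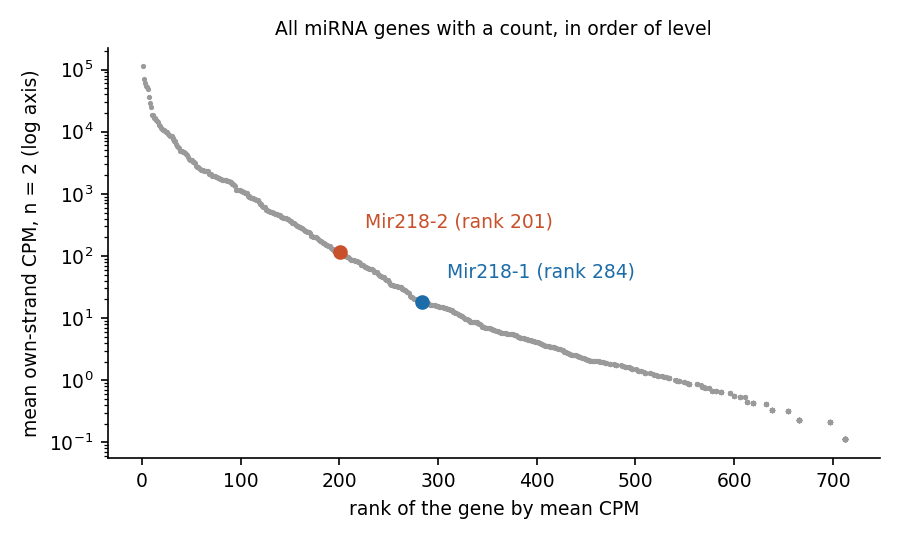
Mean own-strand CPM of both libraries (log axis) against the rank of the gene, for all miRNA genes with a count. Mir218-2 lies at rank 201 with 115 CPM and Mir218-1 at rank 284 with 18.1 CPM.

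Markers of the regions where miR-218 is best known were low in the same libraries. The 6 Hox-cluster miRNA genes of hindbrain and spinal cord had summed levels of 39.4 and 39.8 CPM in replicates 1 and 2, of which Mir10b gave 31.2 ± 0.965 CPM (SD, n = 2). Of the 6, 2 were measured, 1 had no count, and neither measured gene passed the library test. The summed level of Mir218-1 and Mir218-2, 133 ± 15.2 CPM, was above that of this list in both libraries. The muscle list summed to 13.8 and 22.3 CPM, almost all from Mir206, and 4 of its 6 genes had no count. Counts of both lists lack reads with several matches, and Mir196a-1 and Mir196a-2 each have 1 arm that also lies in another gene. Low levels or missing counts therefore do not show that a mature miRNA of either list was scarce. The part of hindbrain, spinal cord or muscle RNA in the miR-218 counts was not tested. In bulk tissue, fewer cells with a miRNA and less of it per cell cannot be told apart.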

How the data were processed

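Raw read counts per miRNA gene were deposited by the authors, made on mm10 with GENCODE M21, per the readme files; the aligner and the counting tool were not given in the sources used here. From the values, the 3 columns were read as both strands, own strand and opposite strand. Own-strand counts were used. Entries that name no gene stayed out of totals; 31.6% of reads in replicate 1 and 18.2% in replicate 2 were unmapped, and 7.36% and 6.91% of mapped reads lay in no feature. All 2202 identifiers matched the annotation. A CAST/EiJ read can mismatch the C57BL/6J reference, which was not tested.

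CPM, exact tests and intervals were computed with SciPy 1.17.1, alignment (match 1, mismatch -1, gap -2 and -0.5) with Biopython 1.88, folding with ViennaRNA 2.7.2. With 1 group, edgeR's quasi-likelihood test has no contrast; edgeR 4.0.16 and DESeq2 1.42.0 served for alternatives. Tests were also run on simulated counts that held counting error only. Those counts had no spread between mice, so they do not show how the tests behave on these libraries. RefSeq sequences were matched by symbol. Named genes were the miR-218 genes, miRNAs inside Slit or Robo genes, seed mates, the 3 nearest in level, copies in related hosts and the top genes of marker lists; Mir5121 and Mir493 were added as neighbours in rank after their values were seen. The genes and lists were chosen with earlier results of these data known.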

Additional observations from a re-analysis of the deposited data

How the results depend on the processing

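No setting brought Mir218-1 or Mir218-2 past the library test: adjusted p ranged from 0.0733 to 1 over 7 alternatives for Mir218-1 and from 0.0966 to 1 over 8 for Mir218-2, which reversed to a log2 ratio of -0.00093 with totals that leave out the 10 most abundant genes. Those totals gave mean levels of 36.5 CPM for Mir218-1 and 234 CPM for Mir218-2, and all mapped reads as total gave 7.58 and 48.5 CPM, since the total itself is smaller or larger. These scalings shift the median log2 ratio of measured genes from 0.06 to -0.12 and -0.06, and the split of calls from 134 higher and 89 lower to 98 and 133, and to 107 and 119. With edgeR's exact test and a common dispersion (biological coefficient of variation 0.310), 3 of 392 genes passed in place of 223, none of them a miR-218 gene. That dispersion was estimated from the same 2 libraries taken as replicates of 1 group. The differences under test thus counted as spread, so few genes could pass, and the test cannot decide which differences exceed the spread between mice. Leaving out a replicate gave 14.7 to 21.6 CPM for Mir218-1, 108 to 123 CPM for Mir218-2, and 2.51 to 2.88 for the log2 ratio of Mir218-2 to Mir218-1. The copy split of miR-218 had an adjusted p of 0.251 to 0.312 over 3 alternatives. The 6 nearest genes were the same with a pseudocount of 0.1. No paired analysis was possible because there is 1 group. Depth limits Mir218-1 most, with 35 counts in replicate 1.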

Other observations

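Genes with an arm that also lies in another gene are not uncommon among measured miRNAs. In the RefSeq table, which is not complete, 658 genes of the files have at least 2 mature sequences. Of these, 56 have some but not all arms found whole in an entry of another gene, as Mir218-1 and Mir218-2 do, 23 have all arms shared and 579 have none shared. At least 10 counts in each library were found for 39 of the 56 (69.6%), for 5 of the 23 and for 266 of the 579 (45.9%). The classes hold different genes, and whether a shared arm has a part in these shares was not tested. Within the 56, Mir218-2 was at position 18 by mean CPM and Mir218-1 at position 34, and the list was led by Mir128-1 (14204 CPM), Mir138-1 (4914 CPM) and Mir128-2 (3273 CPM).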
